A study of Mus musculus with 9 samples.

Results

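Whole ventricles, without atria and valves, were profiled by bulk RNA sequencing, and hearts of transgenic mice under a heart failure model (TTg_HF) were compared with hearts of chow-fed mice (Ctrl). The comparison took 3 TTg_HF and 3 Ctrl libraries, 6 of the 9 libraries of the study, and covered all 12670 genes with enough counts out of 49585 symbols in the table. TTg_HF mice carried Tcf21iCre, the R26 tdTomato reporter and the MGTH2A transgene, and for 15 weeks ate a diet in which fat supplied 60% of kilocalories while drinking water with L-NAME, which blocks nitric oxide synthase, at 1 g/L. Ctrl_HF mice, also 3 libraries, received the same diet and L-NAME and carried Tcf21iCre and the reporter without MGTH2A. Ctrl mice carried the same Cre and reporter, without MGTH2A, and were kept on normal chow. All mice were males of a hybrid of C57BL/6 and ICR and received tamoxifen by intraperitoneal injection at week 5, as 5 daily doses of 2 mg. The Cre is driven by Tcf21, which marks the fibroblast lineage, so recombination was directed at cells of that lineage. As background, MGTH2A encodes Mef2c, Gata4, Tbx5 and Hand2 joined by 2A peptides. Transgenic mice on chow were not analysed here; diet, L-NAME and transgene all differ between TTg_HF and Ctrl and cannot be told apart. The question addressed was which genes still differed from chow hearts in hearts that received the model with the transgene.

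The labels do not say that the replicates were separate animals, so p-values measure the spread between these libraries. Total counts ranged from 6743109 to 9364336 per library. On the first principal component of the 6 libraries (30.4% of the variance) TTg_HF scored between 13.5 and 24.1 and Ctrl between -23.2 and -10.3, and the second (26.2%) set TTg_HF replicate 1 (14.3) and Ctrl replicate 1 (30.4) apart from the other 4. As a check of the tissue, the summed level of 12 cardiomyocyte markers was 96030 to 98280 CPM (counts relative to the TMM-scaled library size) in TTg_HF, 99770 to 101200 CPM in Ctrl_HF and 105500 to 117400 CPM in Ctrl. The sum of 18 fibroblast markers was 2573 to 2763 CPM in TTg_HF, against 2157 to 2239 CPM in Ctrl. For 16 vascular endothelial markers it was 4686 to 5140 CPM in TTg_HF and 4147 to 4215 CPM in Ctrl. Cd36 alone gave 2435 to 2695 CPM of this sum in TTg_HF and 1788 to 2117 CPM in Ctrl. Of the 16 markers 10 had a positive and 6 a negative log2 difference, with a median of 0.09. For the macrophage markers the sum was 379 to 433 CPM in TTg_HF and 285 to 350.2 CPM in Ctrl. For 13 adipocyte markers the sum was 2824 to 3080 CPM in TTg_HF and 2113 to 2317 CPM in Ctrl, most of it Cd36, which other cells also express. The 10 adipocyte markers other than Cd36, Fabp4 and Cidea had 0 to 10 counts per library in TTg_HF and 0 to 37 in Ctrl. Among single genes tested, 18.7% did not overlap between TTg_HF and Ctrl. That share is not a like measure for the sums, which pool genes and in part share members. Of 15 such marker sums, 8 did not overlap between TTg_HF and Ctrl. Those for fibroblasts, vascular endothelium, macrophages, adipocytes and epicardium were higher in TTg_HF. Those for cardiomyocytes, smooth muscle with pericytes, and the cell cycle were lower. A sum follows its most abundant members: C3 alone gave 215.6 to 240.9 CPM of the epicardial sum of 238.6 to 255.5 CPM in TTg_HF. Abcc9 gave 569.8 to 610.4 CPM of the sum for smooth muscle with pericytes in TTg_HF and 697.7 to 824.3 CPM in Ctrl. Ccnd2 gave 130 to 166.6 CPM of the cell cycle sum in TTg_HF and 212.6 to 248.7 CPM in Ctrl. The median log2 difference of tested members was 0.00465 for epicardium, -0.0437 for the cell cycle and -0.0317 for smooth muscle with pericytes. Each of these lists had members in both directions. In bulk tissue, fewer cells of a type and less RNA per cell cannot be told apart, and the part of cell makeup in the results below was not tested.

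Of the transgene's factors, Tbx5 was higher in TTg_HF and the other factors missed the threshold with edgeR. DESeq2 called Gata4 and Hand2 higher as well as Tbx5. Tbx5, a T-box factor of heart development, measured 103, 190 and 140 CPM in the TTg_HF libraries, 24, 20.2 and 27.1 CPM in Ctrl_HF and 26.8, 28.1 and 32.0 CPM in Ctrl. All TTg_HF libraries lay above all others, with a log2 fold change over Ctrl of 2.32 ± 0.21 (SE, adjusted p = 0.00234, edgeR quasi-likelihood test). Gata4, a zinc finger factor of the heart, measured 206, 241 and 197 CPM in TTg_HF, 142, 139 and 147 CPM in Ctrl_HF and 182, 134 and 142 CPM in Ctrl. The TTg_HF and Ctrl values did not overlap, and the log2 difference of 0.50 ± 0.12 missed the threshold (adjusted p = 0.126). Mef2c, a MADS-box factor of muscle, averaged 167 ± 33.5 CPM in TTg_HF, 99 ± 7.51 CPM in Ctrl_HF and 120 ± 2.03 CPM in Ctrl (SD, n = 3 each). Its log2 difference from Ctrl was 0.47 (adjusted p = 0.173). Hand2, a basic helix-loop-helix factor of the heart, averaged 19.4 ± 0.866 CPM in TTg_HF, 13.2 ± 1.96 CPM in Ctrl_HF and 10.8 ± 3.08 CPM in Ctrl (SD, n = 3 each). Its log2 difference from Ctrl was 0.85 (adjusted p = 0.0992). Tcf21 itself did not pass, at 4.36 ± 0.126 CPM in TTg_HF and 3.50 ± 0.891 CPM in Ctrl (log2 difference 0.31, adjusted p = 0.77). The table gives 1 count per gene, so transcripts of the transgene and of the mouse's own genes are summed in it.

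Against chow hearts, TTg_HF hearts had a short list of genes past the threshold, with fat oxidation genes higher and genes of ketone and amino acid use lower. At an adjusted p under 0.05, 59 of 12670 genes (0.466%) differed: 36 (0.284%) were higher and 23 (0.182%) lower in TTg_HF. In 12 of those higher and 7 of those lower the difference was over 2-fold, and the median size was 0.86 on the log2 scale. Of the genes higher, 16 belonged to lists of fatty acid oxidation or of PPAR targets and lipid handling. Of the genes lower, 7 belonged to a list for the breakdown of ketone bodies and branched-chain amino acids. Another 27 of the 59 belonged to no list. All 59 had TTg_HF and Ctrl libraries that did not overlap, which held for 2370 of all genes tested (18.7%). For scale, Ctrl_HF against the same Ctrl libraries gave 458 genes past the threshold (3.61%), of which 227 were higher (1.79%) and 231 lower (1.82%). TTg_HF against Ctrl_HF gave 11 (0.0868%), 6 higher (0.0474%) and 5 lower (0.0395%). The number of genes past the threshold depended on single libraries. It was 24 without Ctrl replicate 2, 29 without Ctrl replicate 3, 24 without TTg_HF replicate 2, 29 without TTg_HF replicate 3 and 114 without Ctrl_HF replicate 1, which enters the shared estimate of the spread. With only the 6 TTg_HF and Ctrl libraries it was 117. With DESeq2 it was 183 of 11794 genes tested, and these 183 included the 59 named here. With the replicate 1 libraries of both groups left out it was 30, of which 20 were among the 59; this setting was chosen after seeing the data. At an unadjusted p under 0.05 there were 1192 genes (9.41%), 638 higher (5.04%) and 554 lower (4.37%). The list counts below are to be read beside these shares and the DESeq2 count.

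**Figure D1:**
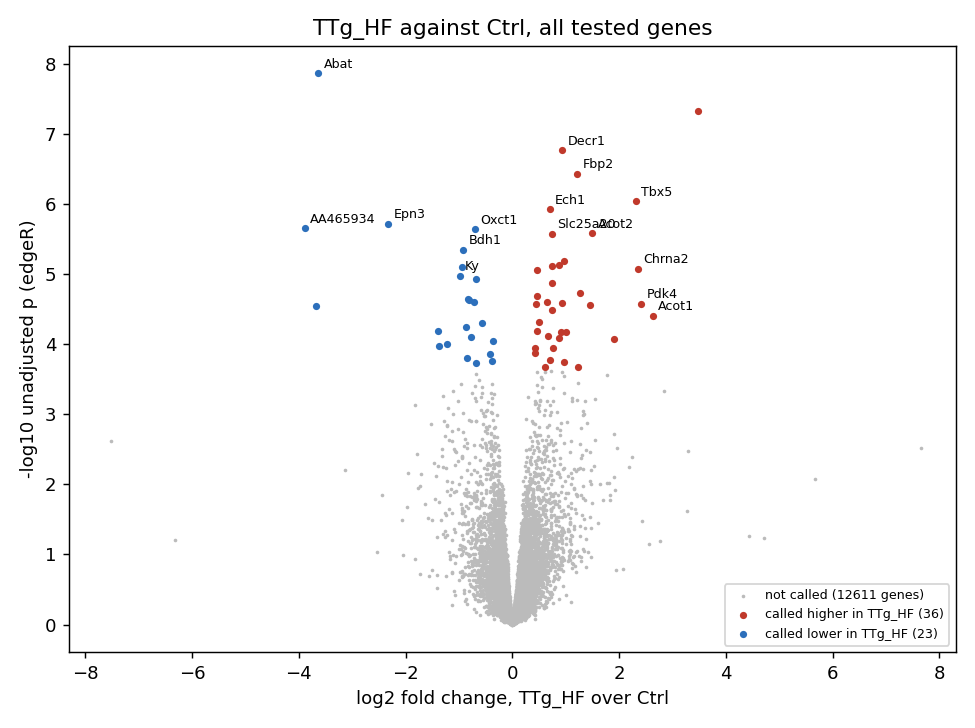
Each point is 1 of 12670 genes: the x axis is the log2 fold change of TTg_HF over Ctrl and the y axis the -log10 unadjusted p from edgeR. The 36 genes higher in TTg_HF (red) and the 23 lower (blue) pass an adjusted p of 0.05, and among the lower genes Abat at -3.63 stands highest.

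The heart draws most of its energy from fatty acids, which enter mitochondria as carnitine esters and are shortened by beta-oxidation. Fatty acids also act as ligands of PPARalpha, a nuclear receptor that raises transcription of enzymes of their own uptake and oxidation, and Pdk4, a classic target, shuts pyruvate out of the mitochondrial citric acid cycle. Ketone bodies and branched-chain amino acids are alternative fuels burned by separate mitochondrial enzymes. To show the regulatory sequence next to genes that carried the fuel pattern, the promoters of Pdk4, Acot1, Acadvl, Fbp2 (higher in TTg_HF) and Oxct1 (lower in TTg_HF) are printed here from RefSeq (GRCm38.p6), 5′ to 3′ on the strand of the gene, with 250 bases before and 50 after the start. Capitals mark matches, on either strand, to the motifs named after the sequences.
Pdk4: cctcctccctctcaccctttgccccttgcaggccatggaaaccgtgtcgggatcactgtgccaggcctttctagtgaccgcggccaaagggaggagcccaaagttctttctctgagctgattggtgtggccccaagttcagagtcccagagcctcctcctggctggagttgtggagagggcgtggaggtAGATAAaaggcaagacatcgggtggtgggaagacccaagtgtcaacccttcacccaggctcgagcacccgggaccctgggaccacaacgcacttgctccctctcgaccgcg
Acot1: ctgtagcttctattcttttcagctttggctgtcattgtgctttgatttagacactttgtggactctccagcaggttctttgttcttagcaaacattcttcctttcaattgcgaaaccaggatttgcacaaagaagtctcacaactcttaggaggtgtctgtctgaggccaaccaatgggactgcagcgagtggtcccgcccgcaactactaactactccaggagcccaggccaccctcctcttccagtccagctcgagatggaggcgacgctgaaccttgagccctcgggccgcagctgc
Acadvl: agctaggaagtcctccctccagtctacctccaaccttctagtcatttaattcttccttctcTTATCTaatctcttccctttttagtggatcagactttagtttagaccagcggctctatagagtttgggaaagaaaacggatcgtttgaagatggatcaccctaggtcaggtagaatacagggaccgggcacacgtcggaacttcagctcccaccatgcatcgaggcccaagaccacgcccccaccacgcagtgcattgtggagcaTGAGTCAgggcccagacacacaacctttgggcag
Fbp2: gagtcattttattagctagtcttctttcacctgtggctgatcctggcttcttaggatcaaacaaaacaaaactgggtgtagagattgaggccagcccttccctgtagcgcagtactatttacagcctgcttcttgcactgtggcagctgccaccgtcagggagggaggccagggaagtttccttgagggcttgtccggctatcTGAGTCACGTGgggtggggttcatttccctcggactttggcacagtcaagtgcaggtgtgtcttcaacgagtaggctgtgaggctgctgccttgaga
Oxct1: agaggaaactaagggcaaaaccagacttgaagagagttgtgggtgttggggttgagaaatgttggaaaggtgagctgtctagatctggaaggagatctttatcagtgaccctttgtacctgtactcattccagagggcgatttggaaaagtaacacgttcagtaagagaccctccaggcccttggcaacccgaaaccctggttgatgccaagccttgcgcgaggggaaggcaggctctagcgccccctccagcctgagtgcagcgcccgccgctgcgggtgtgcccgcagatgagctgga
These windows lie at chr6:5496229-5496528 (minus strand) for Pdk4, chr12:84009252-84009551 (plus) for Acot1, chr11:70015379-70015678 (minus) for Acadvl, chr13:62858351-62858650 (minus) for Fbp2 and chr15:4026178-4026477 (plus) for Oxct1. In Fbp2 the AP-1 motif and the E-box overlap. Of the 59 genes, 41 had a promoter entry, 24 of those higher and 17 of those lower. CACGTG, the E-box of basic helix-loop-helix factors, was present in 2 of 24 and 4 of 17 of these promoters, against 7.15% of all 32851 promoters and 9.74% of those of tested genes. The AP-1 motif, TGACTCA, was present in 2 of 24 and 1 of 17, against 5.2% of all and 3.7% of those of tested genes. The GATA motif, written AGATAA, was in 2 of 24 and 2 of 17 promoters, against 11.2% of all and 6.28% of those of tested genes. The amino acid response motif of Atf4, TGATGNAA, was in 2 of 24 and 0 of 17, against 3.97% of all and 2.16% of those of tested genes. The DR1 repeat bound by PPARs and related receptors was in 0.0396% of all promoters, 0.0321% of those of tested genes and none of the 41. None of the 41 held the D-box of clock-controlled genes, TTATGTAA, at 0.938% of all and 0.537% of those of tested genes. The T-box motif AGGTGTGA, at 1.28% and 0.762%, was also in none. Motifs this rare would be absent from most sets of 41 promoters, so their absence cannot tell whether these genes differ from others. A match describes letters in a window and not a bound site.

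Acot1 and Pdk4, known targets of PPARalpha, were among the genes with large rises. Pdk4, the kinase that switches off pyruvate dehydrogenase, measured 2483, 3197 and 2962 CPM in TTg_HF, 1799, 3562 and 3114 CPM in Ctrl_HF and 584, 616 and 429 CPM in Ctrl. The lowest TTg_HF library was well above the highest Ctrl library, at 5.30-fold over Ctrl (log2 2.41 ± 0.27 SE, adjusted p = 0.0112). Its log2 fold change stayed between 2.26 and 2.51 with any 1 library left out, while the adjusted p was 0.058 without TTg_HF replicate 2, 0.056 without TTg_HF replicate 3, and 0.053, 0.059 and 0.056 without Ctrl replicates 1, 2 and 3. Its promoter, printed above, holds 1 GATA motif.

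Acot1 and Acot2 are neighbouring genes of chromosome 12 for acyl-CoA thioesterases, which release free fatty acids from coenzyme A in the cytosol and in mitochondria. Acot1 measured 40.2, 25.9 and 21.1 CPM in TTg_HF, 30.3, 15.2 and 19.7 CPM in Ctrl_HF and 6.43, 3.81 and 3.75 CPM in Ctrl, a log2 fold change over Ctrl of 2.63 ± 0.36 (adjusted p = 0.0146). Acot2 measured 244, 186 and 164 CPM in TTg_HF, 190, 133 and 162 CPM in Ctrl_HF and 75.4, 66.9 and 67.3 CPM in Ctrl, a log2 fold change of 1.5 ± 0.16 (adjusted p = 0.0031). In both genes all TTg_HF libraries were above all Ctrl libraries. The longest transcripts of the pair share 527 exact stretches of 50 bases, 23.7% of those in Acot1 and 24.5% of those in Acot2, so reads may have been split between them and the separate values are uncertain. The Acot1 call was lost without TTg_HF replicate 2 (adjusted p = 0.059), Ctrl replicate 2 (0.108) or Ctrl replicate 3 (0.099), and Acot2 kept its call without any 1 of the 9 libraries.

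**Figure D2:**
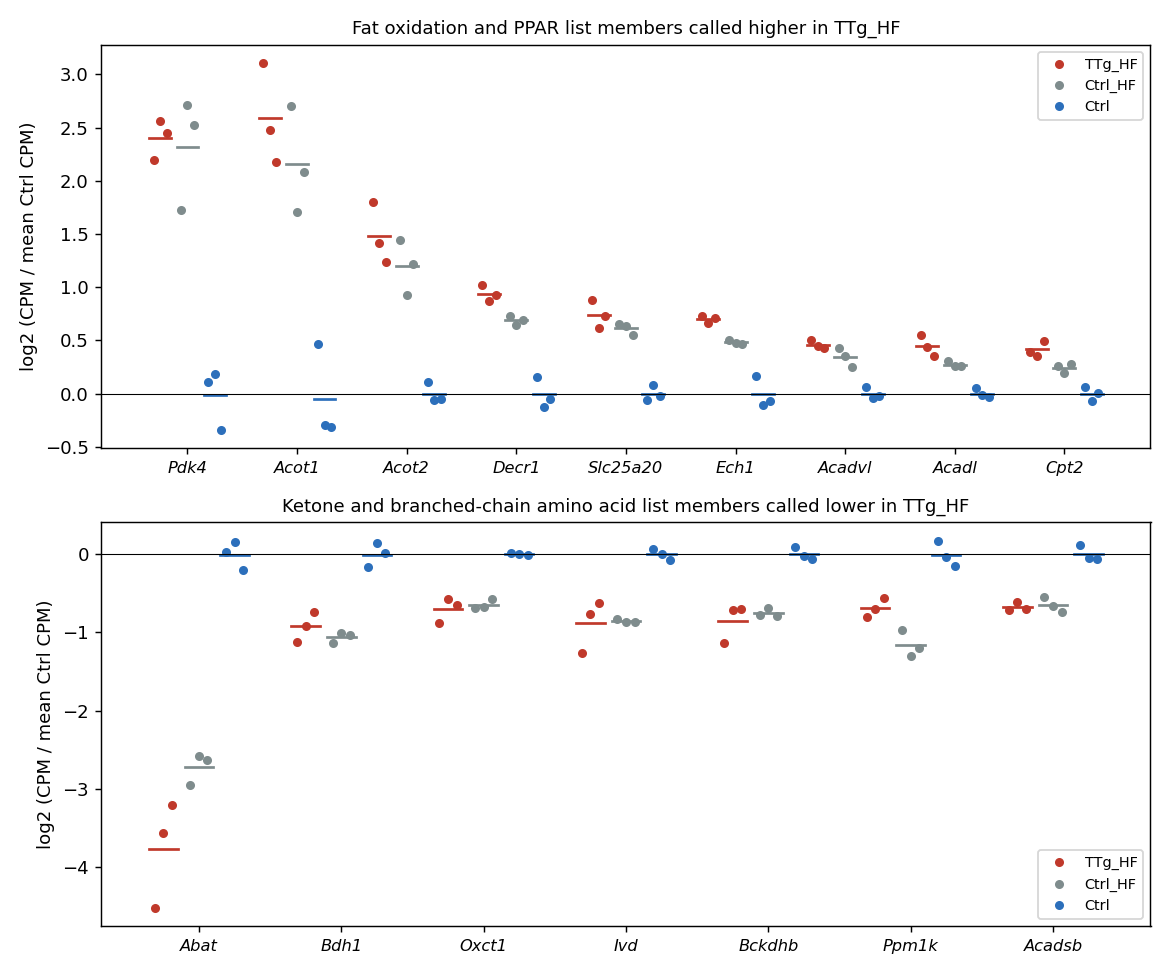
Log2 of each library's CPM over the mean Ctrl CPM (y axis) for 9 genes higher (upper panel) and 7 genes lower (lower panel) in TTg_HF; each dot is 1 library and each line the mean of 3. In every gene shown the 3 TTg_HF dots lie on 1 side of the 3 Ctrl dots, and the Ctrl_HF dots lie on the same side of Ctrl.

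In the list of PPAR targets and lipid handling, 7 of 36 tested members rose and 1 fell in TTg_HF, with a median log2 difference of 0.42 beside -0.00109 over all genes. At an unadjusted p under 0.05, 18 members were higher and 2 lower, and DESeq2 called 12 higher and 1 lower. Besides the genes above, Fabp3, the heart's fatty acid binding protein, measured 2730, 2678 and 2739 CPM in TTg_HF, 2685, 2508 and 2526 CPM in Ctrl_HF and 2100, 1901 and 1919 CPM in Ctrl. All TTg_HF libraries exceeded all Ctrl libraries by a small margin (log2 0.46 ± 0.06, adjusted p = 0.0062), and the call was lost without Ctrl replicate 2 (adjusted p = 0.059). Ucp2, an uncoupling protein of the inner mitochondrial membrane, rose by 0.97 ± 0.17 (adjusted p = 0.0405), and Cidea, a lipid droplet protein, by 0.93 ± 0.14 (adjusted p = 0.0112). Lpl, which releases fatty acids from circulating lipoproteins, went the other way: it measured 3751, 4127 and 3936 CPM in TTg_HF, 3651, 3521 and 3259 CPM in Ctrl_HF and 4996, 5114 and 5048 CPM in Ctrl. The lowest Ctrl library was above the highest TTg_HF library, and Lpl fell by 0.36 on the log2 scale (SE 0.06, adjusted p = 0.0253). Without 1 library, 2 to 8 of these 8 calls were kept: 2 without Ctrl replicate 2, 3 without TTg_HF replicate 2, 4 without TTg_HF or Ctrl replicate 3, 5 without Ctrl replicate 1, 6 without TTg_HF replicate 1, and 8 without any 1 of the Ctrl_HF libraries. Without both replicate 1 libraries 4 were kept.

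Several list members that are often read as targets of the receptor did not pass with edgeR, though DESeq2 called Cd36 higher. Angptl4, an inhibitor of lipoprotein lipase, measured 17.3, 64.0 and 48.9 CPM in TTg_HF, 7.39, 144 and 92.1 CPM in Ctrl_HF and 1.85, 5.31 and 6.21 CPM in Ctrl. The TTg_HF libraries were all above Ctrl but far apart from each other, with a log2 difference of 3.28 ± 1.14 (adjusted p = 0.425). Cd36, the fatty acid translocase, averaged 2590 ± 135 CPM in TTg_HF and 1940 ± 167 CPM in Ctrl (SD, n = 3 each), a log2 difference of 0.42 (adjusted p = 0.121). Plin2, a lipid droplet coat protein, had a log2 difference of 0.59 (adjusted p = 0.534) and Ucp3, an uncoupling protein of muscle, one of 1.28 (adjusted p = 0.68), with overlapping TTg_HF and Ctrl values for Ucp3. Ppara, the receptor itself, overlapped between groups, at 52.9, 51.1 and 61.1 CPM in TTg_HF and 75.9, 53.7 and 61.2 CPM in Ctrl (log2 difference -0.21, adjusted p = 0.888). Its coactivator Ppargc1a overlapped as well, at 137 ± 18.2 CPM in TTg_HF and 159 ± 21 CPM in Ctrl (SD, n = 3 each, log2 difference -0.21, adjusted p = 0.803).

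On the list of fatty acid oxidation and the carnitine shuttle, 9 of 33 tested members rose and 0 fell, with a median log2 difference of 0.36 and 4 members negative. At an unadjusted p under 0.05, 24 members were higher and 1 lower, and DESeq2 called 11 higher and Echs1 lower. Along the path of a fatty acid, the carnitine-acylcarnitine translocase Slc25a20 measured 267, 222 and 241 CPM in TTg_HF, 228, 225 and 213 CPM in Ctrl_HF and 139, 153 and 143 CPM in Ctrl. It was higher in every TTg_HF than in every Ctrl library (log2 0.75 ± 0.09, adjusted p = 0.0031). Cpt2, which returns the acyl group to coenzyme A inside the mitochondrion, rose by 0.42 ± 0.07 (adjusted p = 0.0289). Cpt1b, the muscle gatekeeper of the shuttle, averaged 420 ± 24.5 CPM in TTg_HF and 327 ± 37.3 CPM in Ctrl (SD, n = 3 each), a log2 difference of 0.36 that missed the threshold (adjusted p = 0.159). Of the acyl-CoA dehydrogenases, which take the first step of each cycle, Acadvl (very long chains) rose by 0.46 ± 0.07 and Acadl (long chains) by 0.45 ± 0.07, each at an adjusted p of 0.0112. Acadm (medium chains) had a log2 difference of 0.24 (adjusted p = 0.31).

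Acadvl measured 1204, 1159 and 1142 CPM in TTg_HF, 1141, 1085 and 1013 CPM in Ctrl_HF and 887, 828 and 835 CPM in Ctrl. The groups did not overlap. Its annotated exons overlap those of Dvl2, and the sources used here do not say whether counting used strand, so reads of the 2 genes may mix. The same limit holds for Ucp2, Fabp3, Hadha, Lpcat3, Oxct1, Bdh1, Myl3, Kcng2, Myo19, Vwa3a, Vwa8, Amy1, Svep1 and Gm26809, whose exons also overlap other genes. The Acadvl promoter is printed above with 1 GATA motif and 1 AP-1 motif, both on the other strand. For the later steps, Hadha, the alpha subunit of the trifunctional protein, rose by 0.42 ± 0.07 (adjusted p = 0.0334) and Acaa2, a thiolase that ends the cycle, by 0.47 ± 0.08 (adjusted p = 0.0209). Hadhb, the beta subunit, had a log2 difference of 0.31 (adjusted p = 0.173).

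The auxiliary enzymes for unsaturated fatty acids had the lowest adjusted p of the oxidation list. Decr1, a dienoyl-CoA reductase, measured 716, 646 and 673 CPM in TTg_HF, 587, 555 and 570 CPM in Ctrl_HF and 394, 325 and 343 CPM in Ctrl. The 3 groups did not overlap, with TTg_HF on top (log2 over Ctrl 0.94 ± 0.08, adjusted p = 0.000726). Ech1, a dienoyl-CoA isomerase, measured 1605, 1531 and 1585 CPM in TTg_HF, 1368, 1345 and 1337 CPM in Ctrl_HF and 1081, 897 and 922 CPM in Ctrl. Here too the 3 groups were apart in the same order (log2 over Ctrl 0.70 ± 0.07, adjusted p = 0.00252). Against Ctrl_HF the log2 difference of TTg_HF was 0.25 (95% interval 0.07 to 0.43, adjusted p = 0.207) for Decr1 and 0.22 (95% interval 0.06 to 0.38, adjusted p = 0.212) for Ech1, and neither passed. Eci1, an enoyl-CoA isomerase, missed the threshold against Ctrl narrowly (log2 difference 0.54 ± 0.10, adjusted p = 0.0549). Echs1, the short-chain enoyl-CoA hydratase, had the lowest log2 difference of the list, at -0.29 (adjusted p = 0.151). Pex11a, a factor that makes peroxisomes multiply, rose by 0.88 ± 0.15 (adjusted p = 0.0239). Of the 9 calls on the list, 3 were kept without TTg_HF replicate 2, 3 without Ctrl replicate 2, 3 without Ctrl replicate 3, 4 without TTg_HF replicate 1 and 5 without TTg_HF replicate 3, and Decr1, Ech1 and Slc25a20 passed without any 1 of the 9 libraries. Without both replicate 1 libraries 4 of the 9 were kept.

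Other genes of lipid and peroxisome metabolism were also higher. They were named after their values were seen, other than Fbp2, Hsd17b11 and Cat. Hsd17b11, a lipid droplet hydroxysteroid dehydrogenase, measured 63.2, 75.1 and 79.7 CPM in TTg_HF, 48.1, 43.1 and 68.5 CPM in Ctrl_HF and 22.1, 33.3 and 24.5 CPM in Ctrl. TTg_HF lay above Ctrl throughout (log2 1.45 ± 0.20, adjusted p = 0.0112). Acsf2, an acyl-CoA synthetase, rose by 0.96, Ephx2, the soluble epoxide hydrolase that opens lipid epoxides, by 0.75, Dbi, the acyl-CoA binding protein, by 0.74, and Lpcat3, a phospholipid acyltransferase, by 0.65 on the log2 scale, with adjusted p between 0.0062 and 0.0112. Cat, the hydrogen peroxide degrading enzyme of peroxisomes, rose by 0.67 ± 0.11 (adjusted p = 0.023). It was the 1 call among 41 tested members of a list of Nrf2 targets and antioxidant enzymes, whose median was 0.04. On that list 6 members were higher and 2 lower at an unadjusted p under 0.05, and DESeq2 called 2 higher and 1 lower. Fbp2, the muscle fructose bisphosphatase that runs against glycolysis, measured 34.4, 33.4 and 36.0 CPM in TTg_HF, 25.7, 30.3 and 26.2 CPM in Ctrl_HF and 16.6, 13.9 and 14.3 CPM in Ctrl. Its 3 groups did not overlap (log2 over Ctrl 1.22 ± 0.11, adjusted p = 0.00117). With 1 library left out, Fbp2, Acsf2 and Ephx2 passed in all 9 fits, and the adjusted p reached at most 0.0903 for Hsd17b11, 0.0506 for Dbi, 0.0831 for Lpcat3 and 0.123 for Cat.

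**Figure D3:**
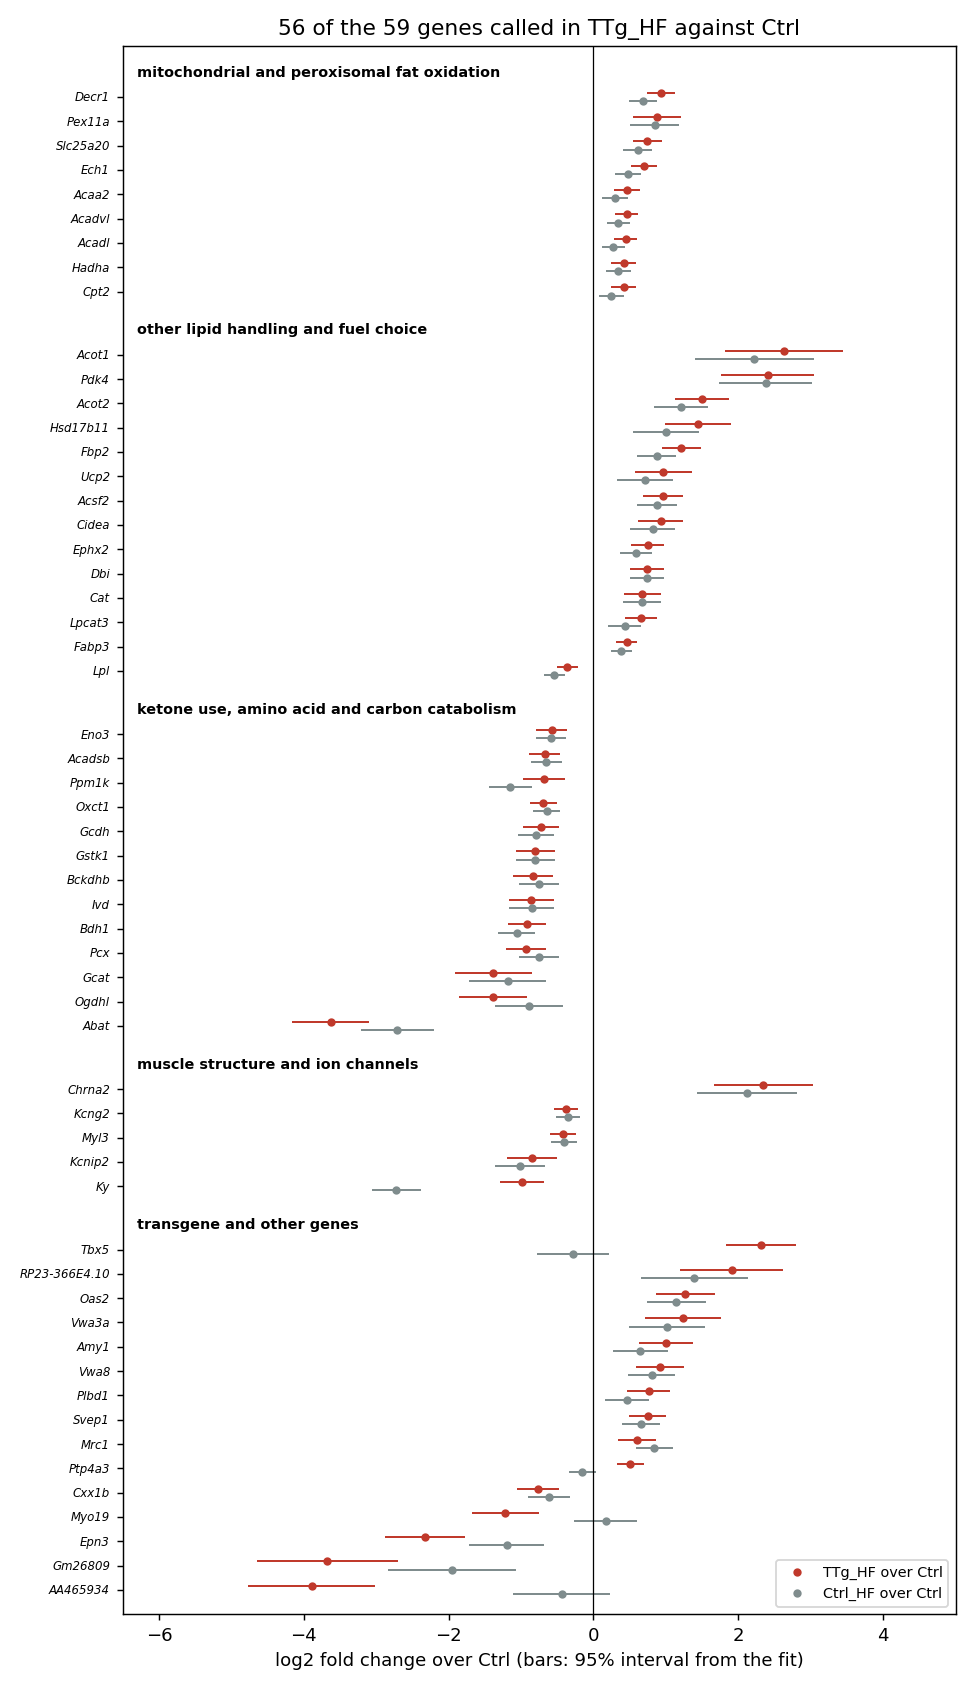
Log2 fold changes over Ctrl (x axis) of 56 of the 59 genes, as points with 95% intervals from the fit, for TTg_HF (red) and, beside it, Ctrl_HF (grey); both use the same 3 Ctrl libraries. Genes are grouped by role, a grouping made after their values were seen, with fat oxidation at the top all to the right of 0 and ketone, amino acid and carbon catabolism all to the left.

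On the list of enzymes that burn ketone bodies and branched-chain amino acids, 0 of 28 tested members rose and 7 fell in TTg_HF, with a median log2 difference of -0.28. At an unadjusted p under 0.05, 1 member was higher and 16 were lower, and DESeq2 called 11 lower. For ketone use, Bdh1, the hydroxybutyrate dehydrogenase, measured 139, 160 and 182 CPM in TTg_HF, 137, 150 and 148 CPM in Ctrl_HF and 268, 333 and 305 CPM in Ctrl. Every TTg_HF library was below every Ctrl library, and Bdh1 fell by 0.92 on the log2 scale (SE 0.11, adjusted p = 0.00475). Oxct1, the transferase that activates acetoacetate for oxidation, measured 811, 1000.5 and 945 CPM in TTg_HF, 926, 932 and 997 CPM in Ctrl_HF and 1496, 1488 and 1479 CPM in Ctrl. The Ctrl libraries were nearly equal and all above the others (log2 difference -0.69 ± 0.08, adjusted p = 0.0031). The Oxct1 promoter printed above holds none of the motifs searched. Acat1, the thiolase shared by ketone use and isoleucine breakdown, had a log2 difference of 0.25 (adjusted p = 0.175).

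Of the branched-chain pathway, 4 enzymes or regulators fell. Bckdhb, a subunit of the branched-chain ketoacid dehydrogenase that commits these amino acids to oxidation, measured 22.6, 30.5 and 30.5 CPM in TTg_HF, 29.2, 30.9 and 28.8 CPM in Ctrl_HF and 52.8, 49.0 and 47.6 CPM in Ctrl. TTg_HF and Ctrl were apart (log2 difference -0.83 ± 0.12, adjusted p = 0.0112), while TTg_HF and Ctrl_HF overlapped. Ppm1k, the phosphatase that activates this complex, measured 24, 25.7 and 28.4 CPM in TTg_HF, 21.5, 17 and 18.3 CPM in Ctrl_HF and 47.2, 40.9 and 37.8 CPM in Ctrl. TTg_HF lay between Ctrl_HF and Ctrl without overlap (log2 over Ctrl -0.69 ± 0.12, adjusted p = 0.041), and against Ctrl_HF the difference of 0.46 (95% interval 0.18 to 0.75) did not pass (adjusted p = 0.163). Ivd, the isovaleryl-CoA dehydrogenase of leucine breakdown, measured 166, 235 and 260 CPM in TTg_HF, 226, 219 and 219 CPM in Ctrl_HF and 419, 399.6 and 379.9 CPM in Ctrl (log2 difference -0.86 ± 0.13, adjusted p = 0.0195). Acadsb, the dehydrogenase of isoleucine intermediates, fell by 0.67 (SE 0.09, adjusted p = 0.00744). Dbt, another subunit of the complex, missed the threshold at a log2 difference of -0.59 (adjusted p = 0.0812). Bcat2, the mitochondrial transaminase of the first step, missed it at -0.47 (adjusted p = 0.0972). Pcca, a subunit of propionyl-CoA carboxylase, missed it at -0.41 (adjusted p = 0.0998). In these genes the TTg_HF and Ctrl libraries did not overlap.

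Abat had the lowest adjusted p of all genes. This transaminase breaks down the amino acid GABA in mitochondria. It measured 2.79, 5.37 and 6.92 CPM in TTg_HF, 8.22, 10.7 and 10.3 CPM in Ctrl_HF and 64.6, 70.8 and 55.3 CPM in Ctrl. The 3 groups were apart, with TTg_HF lowest (log2 over Ctrl -3.63 ± 0.23, adjusted p = 0.000175), and the difference from Ctrl_HF of -0.92 (95% interval -1.49 to -0.36) did not pass (adjusted p = 0.161). Of the 7 calls on the ketone and branched-chain list, Abat, Bdh1 and Oxct1 passed without any 1 of the 9 libraries. Without Ctrl replicate 2 there were 4 of the 7, and without any other single library 5 to 7, and without both replicate 1 libraries 4. Ppm1k was lost without any 1 of the TTg_HF and Ctrl libraries or Ctrl_HF replicate 3, with an adjusted p of up to 0.212, and Ivd without TTg_HF replicate 2 or any 1 Ctrl library, with an adjusted p of up to 0.0941.

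Further enzymes of amino acid and carbon metabolism fell. Pcx, pyruvate carboxylase, which refills the citric acid cycle, measured 22.0, 25.1 and 25.2 CPM in TTg_HF, 32.0, 25.6 and 24.6 CPM in Ctrl_HF and 43.1, 48.5 and 46.8 CPM in Ctrl. TTg_HF was below Ctrl in all libraries (log2 difference -0.93 ± 0.12, adjusted p = 0.0062). Ogdhl, a relative of the oxoglutarate dehydrogenase of that cycle, measured 75.3, 75.1 and 102 CPM in TTg_HF, 102, 161 and 93.1 CPM in Ctrl_HF and 209, 228 and 223 CPM in Ctrl (log2 difference -1.39 ± 0.20, adjusted p = 0.0209). Gcat, of threonine breakdown, fell by 1.38 (adjusted p = 0.0284), with low levels of 2.93 ± 0.61 CPM in TTg_HF and 7.68 ± 1.58 CPM in Ctrl (SD, n = 3 each). Gcdh, of lysine and tryptophan breakdown and named after its values were seen, fell by 0.73 (adjusted p = 0.0112), and Gstk1, a glutathione transferase of mitochondria and peroxisomes, by 0.80 (adjusted p = 0.0112). Pcx passed without any 1 of the 9 libraries, and with 1 left out the adjusted p reached at most 0.115 for Ogdhl, 0.177 for Gcat, 0.0722 for Gcdh and 0.0805 for Gstk1.

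Few genes of glucose use passed the threshold. On a list of 40 tested genes of glucose uptake, glycolysis and pyruvate dehydrogenase, 0 rose and 1 fell with edgeR, and the median log2 difference was -0.15. At an unadjusted p under 0.05 there were 11 members lower, and DESeq2 called 3 lower, Eno3, Hk2 and Slc2a1. Pdk4, which rose, was counted on the PPAR list and not on this one. The gene that fell was Eno3, the muscle enolase, with 868, 958 and 820 CPM in TTg_HF, 916, 851 and 861 CPM in Ctrl_HF and 1145, 1383 and 1417 CPM in Ctrl. TTg_HF and Ctrl did not overlap (log2 difference -0.58 ± 0.09, adjusted p = 0.0175), while TTg_HF and Ctrl_HF did. The call was lost without TTg_HF replicate 1 (adjusted p = 0.083) or 3 (0.109) or Ctrl replicate 2 (0.108) or 3 (0.095). Slc2a1, the basal glucose transporter, measured 6.74, 7.48 and 5.04 CPM in TTg_HF, 11.4, 19.3 and 12.7 CPM in Ctrl_HF and 12.1, 13.9 and 15.7 CPM in Ctrl. TTg_HF was below both other groups, and the log2 difference from Ctrl of -1.11 ± 0.23 missed the threshold (adjusted p = 0.0754). Slc2a4, the insulin-responsive transporter, had a log2 difference of -0.48 (adjusted p = 0.235) and Hk2, the muscle hexokinase, one of -0.37 (adjusted p = 0.1). None of 46 nuclear-encoded genes of the respiratory chain and ATP synthase passed with edgeR or with DESeq2 (6 lower at an unadjusted p under 0.05, median -0.09). Of 13 transcripts of the mitochondrial genome 0 passed with edgeR, 2 were higher at an unadjusted p under 0.05 and DESeq2 called 1, with a median of 0.20.

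Among genes of muscle structure and ion channels, 4 of those described here were lower and 1 higher. Ky, a muscle protease of the Z-disc, measured 19.9, 16.8 and 23.5 CPM in TTg_HF, 6.30, 5.70 and 6.02 CPM in Ctrl_HF and 38.9, 42.7 and 37.4 CPM in Ctrl. TTg_HF stood between the other groups without overlap, lower than Ctrl (log2 -0.99 ± 0.13, adjusted p = 0.00707) and higher than Ctrl_HF (log2 1.73, 95% interval 1.40 to 2.07, adjusted p = 0.00217). Myl3, the ventricular essential light chain of myosin, measured 3618, 3761 and 3998 CPM in TTg_HF, 3721, 4245 and 3498 CPM in Ctrl_HF and 4932, 5155 and 5132 CPM in Ctrl, and fell by 0.42 (adjusted p = 0.0334). Its list of 49 sarcomere and Z-disc genes had 0 higher and 2 lower, a median of -0.17 and 15 members lower at an unadjusted p under 0.05. The cardiomyocyte marker sum was also lower in TTg_HF, at 96030 to 98280 CPM against 105500 to 117400 CPM in Ctrl, and its part in these values was not tested. Kcnip2, the subunit that shapes the fast transient outward potassium current, measured 95.7, 109 and 94.6 CPM in TTg_HF, 109.7, 75 and 81.6 CPM in Ctrl_HF and 163, 212 and 165 CPM in Ctrl, and fell by 0.85 (adjusted p = 0.0376) with TTg_HF and Ctrl libraries apart.

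Kcnip2 was the 1 gene past the threshold of 50 tested genes of calcium handling and ion channels, a list with a median of -0.15 and 40 members negative. At an unadjusted p under 0.05, 3 of its members were higher and 9 lower, and DESeq2 called Abcc9 and Kcnip2 lower. Atp2a2, which pumps calcium back into the sarcoplasmic reticulum, had 15839, 15938 and 17113 CPM in TTg_HF, 14346, 13711 and 13889 CPM in Ctrl_HF and 17480, 17937 and 18004 CPM in Ctrl. The TTg_HF libraries were between the other groups, and the difference from Ctrl of -0.13 (log2) did not pass (adjusted p = 0.433). Kcng2, a modulatory potassium channel subunit named after its values were seen, fell by 0.38 (adjusted p = 0.0397). Chrna2, a nicotinic receptor subunit, was higher at a low level, with 12.3, 6.64 and 9.85 CPM in TTg_HF, 9.45, 7.17 and 7.88 CPM in Ctrl_HF and 1.98, 2.43 and 1.17 CPM in Ctrl (log2 over Ctrl 2.35 ± 0.30, adjusted p = 0.0062). Of the 5 genes grouped as muscle structure and ion channels (Ky, Myl3, Kcnip2, Kcng2 and Chrna2), Ky and Chrna2 passed without any 1 of the 9 libraries. The other 3 passed together without Ctrl_HF replicate 1 or 2 only; the adjusted p with 1 library left out reached at most 0.187 for Myl3, 0.184 for Kcnip2 and 0.228 for Kcng2. Without both replicate 1 libraries 0 of the 5 passed.

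5 of the 59 genes also differed between TTg_HF and Ctrl_HF at an adjusted p under 0.05, and they set transgenic hearts apart from both other groups. Besides Tbx5 and Ky these were Ptp4a3, Myo19 and AA465934. Ptp4a3, a protein tyrosine phosphatase, measured 347, 352 and 298 CPM in TTg_HF, 209.6, 210.1 and 211 CPM in Ctrl_HF and 228, 242 and 231 CPM in Ctrl. The TTg_HF libraries were highest (log2 over Ctrl 0.51 ± 0.08, adjusted p = 0.0174, and over Ctrl_HF 0.66, adjusted p = 0.0179). Myo19, a myosin of mitochondria, measured 7.33, 7.06 and 6.10 CPM in TTg_HF, 15.7, 15.5 and 22.0 CPM in Ctrl_HF and 19, 12.1 and 16.4 CPM in Ctrl. TTg_HF was lowest (log2 against Ctrl -1.21 ± 0.21, adjusted p = 0.027, and against Ctrl_HF -1.38, adjusted p = 0.0369). The exons of Myo19 overlap those of Pigw and Znhit3, so reads of these genes may mix.

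AA465934, a processed transcript of chromosome 11 named after its values were seen, measured 2.05, 1.05 and 2.23 CPM in TTg_HF, 22.7, 10.5 and 24 CPM in Ctrl_HF and 21.8, 24.5 and 31.8 CPM in Ctrl. The highest TTg_HF library was far below the lowest library of the other groups (log2 against Ctrl -3.89 ± 0.38, adjusted p = 0.0031, and against Ctrl_HF -3.45, adjusted p = 0.0227). Myo19 and AA465934 both lie on chromosome 11, at chr11:84880148-84911226 and chr11:83291699-83294632 (GRCm38). On the whole chromosome 6 of 1031 tested genes (0.582%) were among the 59, against 0.466% of all genes. That share does not address a change confined to a part of the chromosome. The sources used here do not give the insertion site of the transgene, and whether the 2 falls share a cause was not tested. Tbx5, Ky and AA465934 passed against Ctrl without any 1 of the 9 libraries, while Ptp4a3 was lost without any 1 of 5 libraries (TTg_HF replicates 1 and 2 and Ctrl replicates 1, 2 and 3, adjusted p of up to 0.115) and Myo19 without any 1 of 5 (TTg_HF replicates 1, 2 and 3 and Ctrl replicates 1 and 3, adjusted p of up to 0.148).

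The remaining genes past the threshold have mixed roles. Epn3, an epsin of endocytosis, measured 9.38, 9.06 and 8.33 CPM in TTg_HF, 17.1, 14.5 and 26.4 CPM in Ctrl_HF and 49.3, 33.3 and 51.6 CPM in Ctrl. The 3 groups did not overlap, with TTg_HF lowest (log2 over Ctrl -2.32 ± 0.24, adjusted p = 0.0031), and the difference from Ctrl_HF did not pass (log2 -1.13, adjusted p = 0.108). Gm26809, a long noncoding RNA of chromosome 6 named after its values were seen, measured 19.1, 15.7 and 13.3 CPM in TTg_HF, 67.9, 45.5 and 44.8 CPM in Ctrl_HF and 132, 149.7 and 329 CPM in Ctrl. Its groups were also in this order without overlap (log2 over Ctrl -3.67 ± 0.41, adjusted p = 0.0114), and the call was lost without TTg_HF replicate 1 (adjusted p = 0.0596), 2 (0.0875) or 3 (0.0794). Oas2, an antiviral enzyme induced by interferon, measured 13.6, 13.3 and 14.7 CPM in TTg_HF, 13, 10.5 and 14.6 CPM in Ctrl_HF and 6.80, 4.74 and 5.75 CPM in Ctrl. It rose by 1.27 ± 0.18 (adjusted p = 0.0109) and was 1 of 39 interferon genes past the threshold, a list with a median of 0.38 and 9 members higher at an unadjusted p under 0.05. Without TTg_HF replicate 2 or 3 or Ctrl replicate 2 or 3 its adjusted p was 0.0506 to 0.0601.

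Mrc1, the mannose receptor of resident macrophages, measured 79.9, 86.6 and 79.5 CPM in TTg_HF, 81.2, 112 and 97.1 CPM in Ctrl_HF and 56.4, 52.3 and 53.1 CPM in Ctrl. It was higher in TTg_HF than in Ctrl in all libraries (log2 0.61 ± 0.11, adjusted p = 0.0455), and all 17 tested macrophage markers had a positive log2 difference, with a median of 0.43 and Mrc1 the only 1 past the threshold. Among the fits with 1 library left out, the call held only without Ctrl_HF replicate 1 or 2. Svep1, a large matrix protein, rose by 0.75 (adjusted p = 0.0124); it was named after its values were seen, and its exons overlap those of Gm26889. Vwa3a rose by 1.24 (adjusted p = 0.0455) and Amy1, an amylase, by 1.00 (adjusted p = 0.0209). Vwa8 rose by 0.92 (adjusted p = 0.0209), Plbd1 by 0.76 (adjusted p = 0.0289) and a clone-based gene by 1.91 (adjusted p = 0.024), while Cxx1b fell by 0.77 (adjusted p = 0.0235), 4 genes named after their values were seen. Each gene in this paragraph lost its call in at least 1 of the 9 fits with 1 library left out, where the adjusted p reached between 0.086 (Svep1) and 0.217 (Mrc1).

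The groups that define fibrosis and cardiac stress had few or no genes past the threshold against chow. Of 22 tested collagens 0 passed, with a median log2 difference of 0.38 and 21 of 22 positive; 7 were higher at an unadjusted p under 0.05 and DESeq2 called 3. Over the same Ctrl libraries the median of Ctrl_HF was 0.51. Col1a2, a chain of type I collagen, measured 315, 275 and 257 CPM in TTg_HF, 279.9, 222 and 242 CPM in Ctrl_HF and 206, 169 and 198 CPM in Ctrl. All TTg_HF libraries were above all Ctrl libraries, and the log2 difference of 0.56 ± 0.11 did not pass (adjusted p = 0.0687). Col14a1, a fibril-associated collagen, measured 41.9, 35.8 and 32.5 CPM in TTg_HF, 24.5, 21.2 and 15.4 CPM in Ctrl_HF and 21.9, 10.7 and 14.9 CPM in Ctrl. TTg_HF was above both other groups (log2 over Ctrl 1.21 ± 0.25, adjusted p = 0.0812). Of 62 other matrix genes 0 passed with edgeR and 7 with DESeq2, which called 183 of all 11794 genes it tested. At an unadjusted p under 0.05, 16 of the 62 were higher and 3 lower, against 5.04% and 4.37% of all genes. Fn1, fibronectin, with 130.3, 127 and 121 CPM in TTg_HF and 91.7, 69.9 and 85.0 CPM in Ctrl, and Adamts2, which trims procollagen, with 46.0, 42.7 and 39.1 CPM in TTg_HF and 29.3, 22.3 and 25.2 CPM in Ctrl, had log2 differences of 0.62 and 0.73 and both just missed (adjusted p = 0.0504). The fibroblast marker sum was higher in TTg_HF than in Ctrl too, at 2573 to 2763 CPM against 2157 to 2239 CPM, and its part in these values was not tested.

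Lox, the enzyme that crosslinks collagen, measured 6.89, 7.17 and 2.93 CPM in TTg_HF, 17.5, 24.7 and 26.3 CPM in Ctrl_HF and 6.06, 5.08 and 6.10 CPM in Ctrl. TTg_HF and Ctrl overlapped (log2 difference -0.02, 95% interval -0.70 to 0.65, adjusted p = 0.994). Postn, a matrix protein of activated fibroblasts, measured 65.7, 59.5 and 43.5 CPM in TTg_HF, 36.7, 95.2 and 71.8 CPM in Ctrl_HF and 34.0, 25.1 and 32.8 CPM in Ctrl. The TTg_HF and Ctrl libraries were apart, but the log2 difference of 0.88 ± 0.33 did not pass (adjusted p = 0.449). Of 36 tested genes of activated fibroblasts and TGF-beta signalling 0 passed with edgeR and 1 with DESeq2, and 8 were higher at an unadjusted p under 0.05. The list's median log2 difference over Ctrl was 0.22 in TTg_HF and 0.49 in Ctrl_HF.

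Of 25 genes of cardiomyocyte stress and the fetal program 0 passed with edgeR or DESeq2, and at an unadjusted p under 0.05 none was higher and 3 were lower. The median over Ctrl was -0.05 in TTg_HF and 0.57 in Ctrl_HF. Ankrd1, a stress-induced ankyrin repeat protein of the sarcomere, measured 1677, 1548 and 1533 CPM in TTg_HF, 2558, 4319 and 3553 CPM in Ctrl_HF and 1378, 1285 and 1169 CPM in Ctrl. The TTg_HF libraries were above Ctrl by a log2 difference of 0.31 (95% interval -0.05 to 0.67, adjusted p = 0.619). Nppb, the B-type natriuretic peptide, measured 241, 151 and 63.3 CPM in TTg_HF, 364, 882 and 442 CPM in Ctrl_HF and 279, 146 and 193 CPM in Ctrl. Its TTg_HF and Ctrl libraries overlapped and were spread widely (log2 difference -0.44, 95% interval -1.76 to 0.87), an interval that includes a fall of over 2-fold. Cytokine, chemokine and acute phase genes had 0 of 40 past the threshold with edgeR or DESeq2 and 5 higher at an unadjusted p under 0.05. Their median over Ctrl was 0.30 in TTg_HF and 0.80 in Ctrl_HF.

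Among the other lists, 0 members passed with edgeR for Atf4 and the amino acid response (42 tested), the unfolded protein response (26), heat shock chaperones (31), the circadian clock (23), fatty acid and cholesterol synthesis (39), nitric oxide and cyclic GMP (24), renin-angiotensin, endothelin and adrenergic signalling (34), insulin signalling (41) and other cardiac transcription factors (29). At an unadjusted p under 0.05 these lists had between 0 and 7 members higher and between 0 and 5 lower. DESeq2 called 3 members of the Atf4 list, 1 each of the synthesis, nitric oxide, insulin and transcription factor lists and none of the others. Atf5, an Atf4 target, measured 69.9, 89.5 and 84.9 CPM in TTg_HF, 97.1, 71.5 and 82.6 CPM in Ctrl_HF and 42.9, 43.9 and 58.3 CPM in Ctrl. TTg_HF was above Ctrl in all libraries, and the log2 difference of 0.75 ± 0.15 missed the threshold (adjusted p = 0.0697).

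**Figure D4:**
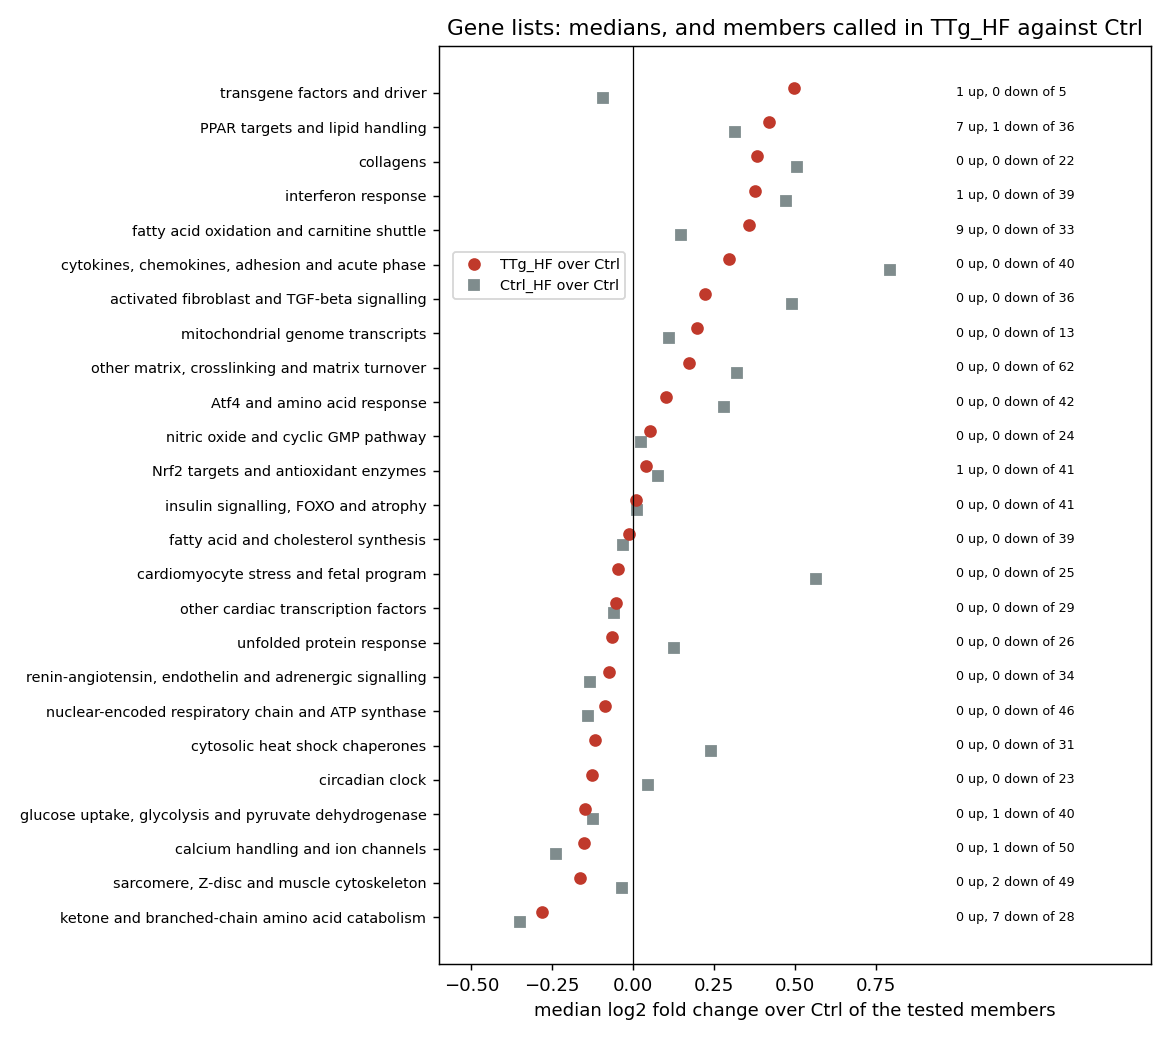
Median log2 difference over Ctrl (x axis) of the tested members of 25 gene lists, for TTg_HF (red circles) and Ctrl_HF (grey squares), with the number of members past the threshold in TTg_HF against Ctrl at the right. The fatty acid oxidation and PPAR lists hold 9 and 7 of the members that rose, the ketone and branched-chain list all 7 of its calls lower, and the collagen, fibroblast, stress and cytokine lists 0.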

How the data were processed

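RNA was measured in 9 ventricle libraries, 3 each of TTg_HF, Ctrl_HF and Ctrl, grouped by the labels. Per the labels' protocols, ribosomal RNA was depleted and libraries were directional. The deposited counts are whole numbers per gene symbol, not scaled or filtered, per the file headers (expression values). The authors' normalized signal is, tested on the file, the count times 1 factor per library (largest relative deviation 0.000113); those factors served as an alternative normalization. The submitters' processing notes give mm10 as the build; the sources used here name no aligner or counter and do not state its use of strand.

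Of 49585 symbols, 26 were turned into dates and 47121 (95%) matched GENCODE vM21. Genes were kept by filterByExpr (minimum count 10, minimum total 15), which left 12670. Counts were scaled by TMM, and 1 robust quasi-likelihood model of edgeR 4.0.16 took all 9 libraries, with only the group as a term (two-sided, Benjamini-Hochberg over all genes, threshold 0.05). Standard errors are the log2 fold change divided by the root of F. Biological coefficients of variation had a median of 0.131. The fit was tested on simulated data. Alternatives used DESeq2 1.42.0, other factors and filters, a block for replicate number and left-out libraries. R 4.3.3, Python 3.11.15, pandas 2.3.3 and matplotlib 3.10.9 were used.

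The comparison and the gene lists (25 of biology, 15 of cell types, 4 technical) were chosen with earlier results of these data known, and lists are described by counts and medians without a list test. Named genes were the 5 transgene and driver genes, the 12 largest rises and 12 largest falls past the threshold at a mean of at least 1 CPM with separate groups and a curated name, the 3 lowest p in each biology list, genes past the threshold against both other groups, and list members past it. Other genes given as values were chosen after their values were seen, and 3 genes past the threshold are counted but not reported here. No library was left out of the main comparison, and no 2 libraries agreed within sampling noise.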

Additional observations from a re-analysis of the deposited data

How the results depend on the processing

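The number of genes past the threshold, 59 with 36 higher and 23 lower in TTg_HF, moved with the setting, and the directions of the 59 did not reverse in any alternative tried. Other factors (DESeq2 size factors, upper quartile, library totals, the authors' factors) gave 53 to 61 genes, and a minimum mean of 1 CPM gave 59. Without a filter on low counts there were 118 (67 higher, 51 lower), with a required fold of 1.2 there were 28 (17 higher, 11 lower), with the 6 TTg_HF and Ctrl libraries alone 117 (70 higher, 47 lower) and with DESeq2 183 (103 higher, 80 lower). Leaving out 1 library at a time gave 24 to 114 genes, 13 to 70 higher and 11 to 44 lower. Without both replicate 1 libraries, a setting chosen after seeing the data, there were 30 (20 higher, 10 lower). The cause of these moves was not tested. Among the 12 genes called in all 21 alternatives were Tbx5, Acot2, Fbp2, Decr1, Ephx2, Slc25a20 and Ech1, all higher, and Oxct1, Bdh1, Abat and AA465934, all lower. For the 105 genes named by the rule, 212 of the alternative values lost a call and 114 gained one.

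Same-numbered libraries had correlations of their deviations from -0.164 to 0.197 (9 pairs), against -0.191 to 0.167 for other numbers (18 pairs). The highest, 0.197, was that of TTg_HF replicate 1 with Ctrl replicate 1, which the second principal component also set apart. Whether replicate numbers mark pairs or batches cannot be told from these values. A replicate block gave 52 genes (37 higher, 15 lower) with 9 libraries, against 59 without the block. With 6 libraries the block gave 232 (133 higher, 99 lower), against 117 without it. With 6743109 to 9364336 counts per library and 3 libraries a group, small differences of genes near the filter were not detectable.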

Other observations

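A few genes differed widely between libraries of 1 group; they were chosen after their values were seen. Firre measured 0.293, 48.6 and 48.8 CPM in TTg_HF, 0.548, 0.292 and 1.04 CPM in Ctrl_HF and 0.494, 1.39 and 0 CPM in Ctrl. Pttg1 measured 3.08, 20.6 and 21.3 CPM in TTg_HF, 1.92, 1.32 and 22.6 CPM in Ctrl_HF and 2.47, 2.54 and 2.70 CPM in Ctrl. Hsd17b7, a sterol synthesis gene, measured 3.66, 20.3 and 23.0 CPM in TTg_HF, 3.42, 5.85 and 3.82 CPM in Ctrl_HF and 3.09, 4.16 and 3.17 CPM in Ctrl. In TTg_HF replicate 1 all 3 were near the Ctrl level, while replicates 2 and 3 were high. Tpm3-rs7 went the other way, with 6.30, 0.105 and 0.235 CPM in TTg_HF, 4.38, 8.48 and 8.92 CPM in Ctrl_HF and 0, 0 and 0.234 CPM in Ctrl, as did Abhd1, with 18.6, 2.42 and 1.76 CPM in TTg_HF, 15.6, 12.7 and 2.32 CPM in Ctrl_HF and 0.865, 1.85 and 0.469 CPM in Ctrl. None of the 5 passed the threshold against Ctrl with edgeR (adjusted p of 0.228 to 0.594). DESeq2 called Hsd17b7 higher, the 1 call of the synthesis list, and that gene was high in replicates 2 and 3 of TTg_HF only.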
